A study of Mus musculus with 2 samples.

Results

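Genes for 8 secreted proteins of the acute phase response and of the complement system were followed in LPC-HRas cells, namely Saa3, Lcn2, Agt, Serpina3n, C3, C4b, Cfb and Serping1, out of 55487 named gene records. They were taken by gene symbol, and each symbol had 1 record; the names themselves were chosen from the same contrast of shETV4 with shRFP that is described here, so their differences between the libraries are a description and were not tested. LPC-HRas is labelled as a mouse hepatocellular carcinoma line from liver. One library came from cells given lentivirus with the hairpin shETV4, directed at the ETS-family transcription factor gene Etv4, and the other from cells given lentivirus with the control hairpin shRFP, directed at red fluorescent protein. There was 1 library and 1 hairpin per group, so no value below has a replicate check. Both groups are of the same HRas line, and the labels give no further allele, drug or time point.

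The acute phase response is the change in the set of plasma proteins that liver cells secrete after infection or injury. Interleukin-6, acting through STAT3, and interleukin-1 and tumour necrosis factor, acting through NF-kB and C/EBP factors, are its known inducers in hepatocytes. Complement is a cascade of plasma proteases in which the classical and alternative routes meet at C3, and the liver is its main source, although epithelial cells, fibroblasts and macrophages also make several components.

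All 8 genes had the higher value in the shETV4 library. The 5 genes that reached 1 TPM, namely Agt, Saa3, Serpina3n, C3 and Lcn2, stood between 2.31-fold (Lcn2) and 4.50-fold (Agt) higher with shETV4. The other 3, C4b, Cfb and Serping1, lay under 1 TPM in both libraries. Values are TPM, a measure of transcript abundance scaled to transcript length and to each library's total that holds no record of depth, so the counting error of each value is unknown. Folds are plain ratios of TPM. A difference is the log2(TPM + 1) of the shETV4 library less that of the shRFP library, which shrinks the change of low genes. Genes that reached 1 TPM in either library are termed measured. Among these a gene counted as called from 2-fold on, that is from a difference of 1 upward (higher) or -1 downward (lower). Within, inside or past 2-fold thus refers to the difference at the stated pseudocount, and a gene whose plain ratio exceeds 2 can lie within 2-fold.

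The plot of levels shows the genes by their TPM in each library.

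**Figure D1:**
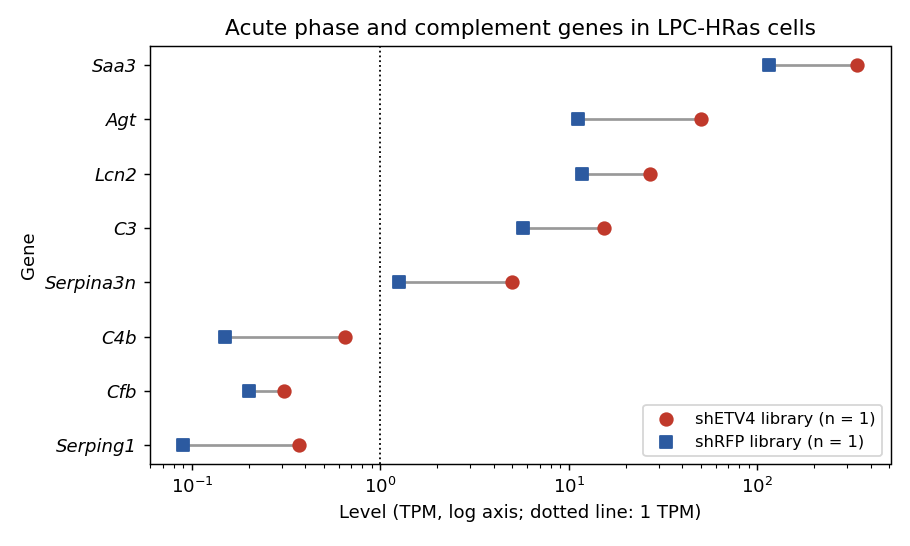
TPM of the 8 genes (log axis) in the shETV4 library (circles) and the shRFP library (squares), 1 library each, ordered by mean level. Every circle lies to the right of its square, and C4b, Cfb and Serping1 lie left of the dotted line at 1 TPM in both libraries.

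Promoter sequences are shown for Saa3, Lcn2 and Agt: Saa3 had the highest level, Agt the largest difference, and Lcn2 the most matches to the PEA3 site, a binding site of the subfamily that holds Etv4. RefSeq promoters (GRCm38.p6, 250 bases before to 50 after the start, sense strand of the gene) were matched for 5 of the 8 genes, namely Saa3, Lcn2, Agt, Serpina3n and C3. The Saa3 promoter is chr7:46715627-46715926 on the minus strand, that of Lcn2 chr2:32387690-32387989 on the minus strand and that of Agt chr8:124569657-124569956 on the minus strand. Capitals mark motif matches, which in Saa3 is the interferon response element GAAANNGAA, in Lcn2 the PEA3 site AGGAAG read on the opposite strand, and in Agt a PEA3 site that runs into the STAT motif TTCNNNGAA.
Saa3: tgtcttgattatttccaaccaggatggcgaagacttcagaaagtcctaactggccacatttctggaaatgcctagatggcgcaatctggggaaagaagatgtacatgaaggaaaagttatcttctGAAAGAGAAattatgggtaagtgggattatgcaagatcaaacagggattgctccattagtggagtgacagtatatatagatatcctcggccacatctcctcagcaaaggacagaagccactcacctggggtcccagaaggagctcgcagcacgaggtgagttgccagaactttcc
Lcn2: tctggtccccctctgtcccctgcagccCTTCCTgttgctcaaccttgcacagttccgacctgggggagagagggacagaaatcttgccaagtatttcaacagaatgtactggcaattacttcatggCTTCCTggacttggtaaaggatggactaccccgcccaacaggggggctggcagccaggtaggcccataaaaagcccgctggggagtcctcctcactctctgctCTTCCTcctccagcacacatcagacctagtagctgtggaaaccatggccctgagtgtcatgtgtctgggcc
Agt: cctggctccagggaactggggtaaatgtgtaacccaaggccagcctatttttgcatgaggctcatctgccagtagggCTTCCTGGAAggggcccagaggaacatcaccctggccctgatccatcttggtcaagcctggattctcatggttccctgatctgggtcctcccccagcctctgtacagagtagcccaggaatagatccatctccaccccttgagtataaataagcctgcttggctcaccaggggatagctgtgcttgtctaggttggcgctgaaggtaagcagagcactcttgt

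On both strands of the 5 promoters, the PEA3 site was found in 3, at 3 places in Lcn2 (bases -223 to -218, -124 to -119 and -21 to -16 from the start), at 1 in Agt (-173 to -168) and at 1 in Serpina3n (-157 to -152). Of all 32851 promoters of the same length, 35.4% hold it. The interferon response element lay at -125 to -117 in Saa3 and in no other of the 5; 8.56% of all promoters hold a match. The STAT motif, whose match in Agt at -172 to -164 shares bases with the PEA3 site, is held by 8.30% of all promoters. Neither the NF-kB consensus (held by 8.46% of all promoters) nor the C/EBP motif TTGCNNCAA (2.08%) matched in the 5 windows, and C3 had no match to any of the 5 motifs. A match is a run of letters in this window, not a bound site, and a window without one says nothing about the factor.

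**Figure D2:**
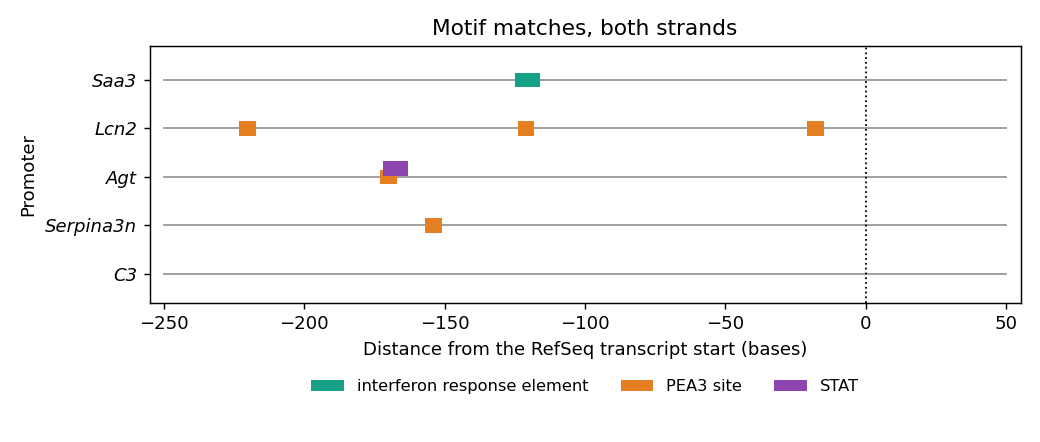
Places of motif matches in the 5 promoters, by distance in bases from the RefSeq transcript start (dotted line); each bar is 1 match on either strand. Lcn2 holds 3 PEA3 sites, Agt and Serpina3n 1 each, and C3 none.

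Among the acute phase genes, Saa3 (ENSMUSG00000040026, GRCm38 chromosome 7, 46711998 to 46715700, minus strand) was the most abundant of the 8. It encodes a serum amyloid A protein that in mice is made mainly outside hepatocytes on inflammatory stimulation. Its level was 337 TPM with shETV4 and 115 TPM with shRFP, a 2.92-fold ratio and a difference of 1.54. Saa3 alone made up 77.3% of the summed level of the 8 genes with shETV4 (435.8 TPM) and 79.2% with shRFP (145.8 TPM). The serum amyloid A genes that hepatocytes express, Saa1 and Saa2, were at or near 0, Saa1 at 0.31 TPM with shETV4 and 0.36 TPM with shRFP and Saa2 listed at 0 in both. Adding Saa1 and Saa2 to Saa3 left the difference at 1.53.

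Lcn2 (ENSMUSG00000026822, chromosome 2, 32384633 to 32388252, minus strand) encodes lipocalin-2, which withholds iron from bacteria by binding their siderophores. It was at 27.1 TPM with shETV4 and 11.7 TPM with shRFP, 2.31-fold, with a difference of 1.14, the smallest among the 5 measured genes. None of the 31-base words of its transcripts occurs in transcripts of another gene. Of 10 listed receptors and partners of lipocalin-2 and serum amyloid A, 4 were measured and all 4 lay within 2-fold. The most abundant were Scarb1, a scavenger receptor that binds serum amyloid A, at 86.0 TPM with shETV4 and 80.7 TPM with shRFP, and Tlr2, a receptor for bacterial lipoproteins, at 14.8 and 12.5 TPM.

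Agt (ENSMUSG00000031980, chromosome 8, 124556534 to 124569706, minus strand) had the largest difference of the 8. It encodes angiotensinogen, the serpin-fold precursor of the angiotensin peptides and itself an acute phase protein in rodents. Its level was 50.3 TPM with shETV4 and 11.2 TPM with shRFP, which is 4.50-fold and a difference of 2.07. Among the 11570 measured protein-coding genes, ordered from the highest difference, Agt had rank 22, Saa3 rank 67, Serpina3n rank 97, C3 rank 130 and Lcn2 rank 180. As the names were picked from this same contrast, nothing is read from these ranks.

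Of 16 other genes of the renin-angiotensin system, 9 were measured, 1 was called higher and none lower. Over all measured genes 3.39% were called higher and 7.06% lower. Their median difference was -0.02, and 0.45 once the median difference of genes of like GC content was subtracted. The gene called higher was Ace, which encodes the enzyme that makes angiotensin II, at 8.49 TPM with shETV4 and 2.08 TPM with shRFP (4.08-fold). Renin (Ren1), which cleaves angiotensinogen, and the angiotensin receptors Agtr1b and Agtr2 were listed at 0 in both libraries, and Agtr1a was listed at 0 with shETV4 and at 0.03 TPM with shRFP. The most abundant genes of the list lay within 2-fold: Ctsd, a lysosomal protease, at 407 TPM with shETV4 and 282 TPM with shRFP, and Atp6ap2, the renin receptor, at 66.1 and 101 TPM. The difference of Atp6ap2 was -0.60 before and 0.00 after the same GC adjustment. The precursor and one processing enzyme were thus higher with shETV4 in cells where the levels of renin and of the classical receptors were at or near 0.

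Serpina3n (ENSMUSG00000021091, chromosome 12, 104406729 to 104414329, plus strand) is a mouse relative of human alpha-1-antichymotrypsin and a secreted inhibitor of granzyme B and neutrophil proteases. It was at 5 TPM with shETV4 and 1.26 TPM with shRFP, a 3.97-fold ratio on low levels and a difference of 1.41. Of its transcript words of 31 bases, 21.6% occur in transcripts of other genes, led by Serpina3f and Serpina3g with 5.9% each, so part of its reads could be divided among relatives in a way the files do not show. Of 10 other Serpina3 genes 4 were measured, all 4 above 0, with a median difference of 0.60. Over all measured genes 41.6% lay above 0 and 3.39% were called higher. Serpina3g, an intracellular serpin, was the 1 called higher, at 62.2 TPM with shETV4 and 29.1 TPM with shRFP, and Serpina3h was at 4.15 and 2.96 TPM. Summed over Serpina3n and the 10 others, the level was 76.2 TPM with shETV4 and 35.7 TPM with shRFP, a difference of 1.07. None of the 11 listed targets and contact system proteins of the member serpins, among them the neutrophil proteases Elane, Ctsg and Prtn3 and the kallikrein gene Klkb1, was measured; the highest value was 0.34 TPM.

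Of the complement genes, C3 (ENSMUSG00000024164, chromosome 17, 57203970 to 57228136, minus strand) was the only one of 4 that was measured. It encodes the component at which all activation routes meet. It was at 15.4 TPM with shETV4 and 5.74 TPM with shRFP, 2.68-fold, with a difference of 1.28. No 31-base word of its transcripts is shared with another gene. Of the terminal components that act after C3, C5 (Hc), C6, C7, C8a, C8b and C9 did not exceed 0.09 TPM in either library, whereas C8g was measured.

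C4b (ENSMUSG00000073418, chromosome 17, 34728380 to 34743882, minus strand), which encodes the C4 component of the classical and lectin routes, was at 0.65 TPM with shETV4 and 0.15 TPM with shRFP. Its near copy C4a was at 0.47 TPM with shETV4 and 0.42 TPM with shRFP. Of the 31-base words of C4b transcripts 48.3% also occur in C4a, so the division between these genes is uncertain. Their sum was 1.12 TPM with shETV4 and 0.57 TPM with shRFP, a difference of 0.43 and within 2-fold.

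Cfb (ENSMUSG00000090231, chromosome 17, 34856374 to 34862518, minus strand), the protease of the alternative route, was at 0.31 TPM with shETV4 and 0.2 TPM with shRFP. Of its exonic bases 79.5% also lie in exons of another gene, and 75.5% of its transcript words occur in Gm20547, a protein-coding record that spans Cfb and part of the adjoining C2 gene. Gm20547 was at 1.76 TPM with shETV4 and 0.98 TPM with shRFP, above Cfb in both libraries. C2, the corresponding protease of the classical route, was at 1.19 TPM with shETV4 and 0.07 TPM with shRFP, and shares 46.9% of its exonic bases. The 3 records summed, a sum chosen after their values were seen, came to 3.26 TPM with shETV4 and 1.25 TPM with shRFP, a difference of 0.92. The level of Cfb as a separate gene is therefore not settled by these files.

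Serping1 (ENSMUSG00000023224, chromosome 2, 84765387 to 84775444, minus strand) encodes C1 inhibitor, the serpin that blocks C1r, C1s and the contact proteases. It was at 0.37 TPM with shETV4 and 0.09 TPM with shRFP, and shares no transcript word with other genes. On the log2(TPM + 1) scale a gene below 1 TPM in both libraries cannot reach 2-fold, so C4b, Cfb and Serping1 could not be called; their differences were 0.52, 0.13 and 0.33.

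With this, 5 of the 8 genes were called higher and none lower. Calls upward made up 3.39% and calls downward 7.06% of all 12968 measured named genes, and 2.16% and 6.37% of the 11570 protein-coding ones. Since the names were picked from this contrast, nothing is read from that comparison. Such shares differed by level. Of protein-coding genes with a mean of 1 to 5 TPM, where Serpina3n lies, 4.14% were called higher. The shares were 1.64% at 5 to 20 TPM (C3 and Lcn2), 1.39% at 20 to 100 TPM (Agt) and 1.84% at 100 TPM or more (Saa3). Over all measured genes the median difference was -0.10 and 41.6% lay above 0. Counts over all genes moved with base composition: after the median difference of genes of like GC content was subtracted, there were 515 calls upward and 298 downward, in place of 439 and 916. The transcript GC content of the 8 genes ran only from 51.4% to 56.3%, near the median of 50.7% over all measured genes, and the adjusted differences of the 5 measured genes were 1.91 (Agt), 1.52 (Saa3), 1.43 (Serpina3n), 1.30 (C3) and 1.10 (Lcn2), all still past 2-fold.

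**Figure D3:**
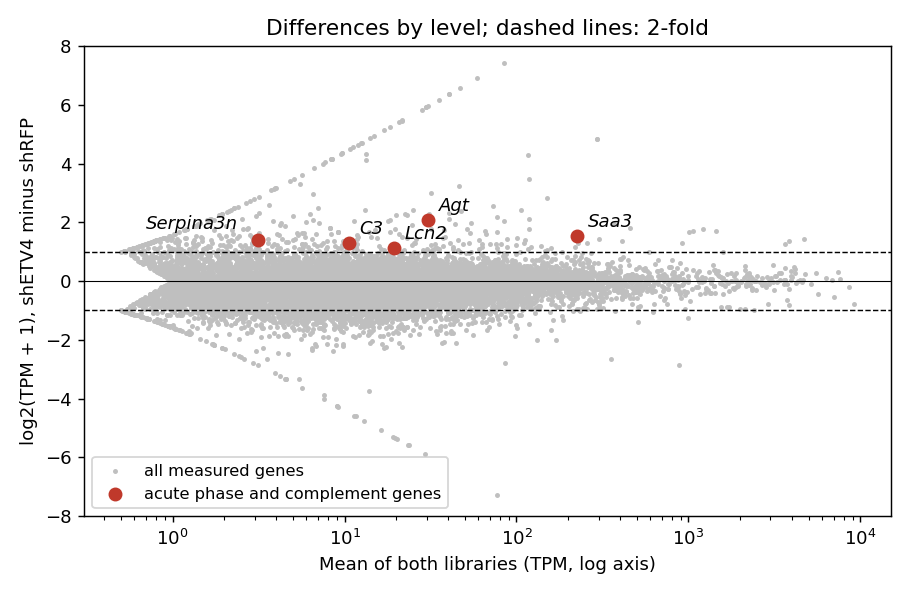
Difference in log2(TPM + 1), shETV4 minus shRFP, against mean TPM (log axis) for all 12968 measured genes (grey) and the 5 measured acute phase and complement genes (red). The 5 genes lie above the upper dashed line (2-fold), between 1.14 for Lcn2 and 2.07 for Agt, at mean levels between 3.13 and 226 TPM; the grey diagonal streaks are genes listed at 0 in one library.

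Changing the pseudocount moved the low genes most. With a pseudocount of 5 the differences of Lcn2, C3 and Serpina3n were 0.94, 0.92 and 0.68, inside 2-fold, while Agt (1.77) and Saa3 (1.5) stayed past it. At a 3-fold threshold Agt alone was called.

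**Figure D4:**
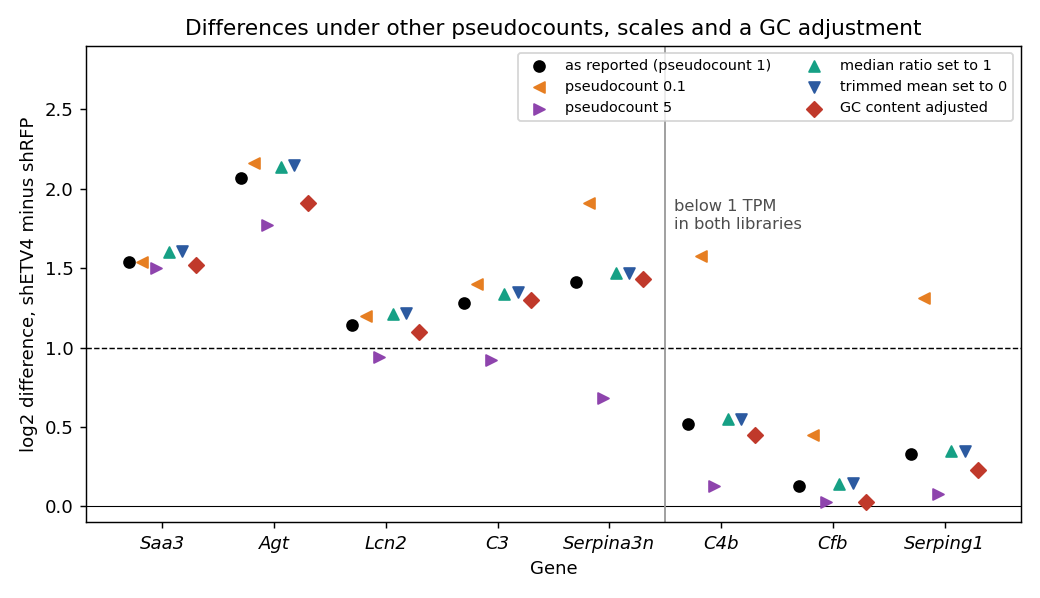
Difference of each of the 8 genes, shETV4 minus shRFP, as reported and under 5 other settings; the dashed line is 2-fold, and genes right of the grey line were below 1 TPM in both libraries. Agt and Saa3 stay above the line throughout, Lcn2, C3 and Serpina3n drop below it with a pseudocount of 5, and of the genes right of the grey line C4b (1.58) and Serping1 (1.31) lie above it with a pseudocount of 0.1, while Cfb (0.45) does not.

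Other acute phase proteins were mostly not measured. Of 30 listed, 22 were below 1 TPM in both libraries, including the fibrinogen genes Fga, Fgb and Fgg, listed at 0 in both, and Crp and Apcs. The 8 measured ones all lay above 0, with a median difference of 0.62. Of these, 1 was called higher and none lower. Over all measured genes 41.6% lay above 0, 3.39% were called higher and 7.06% lower, with a median of -0.10. As the lists were chosen with earlier results known, nothing is read from that comparison for any list. That gene was Lbp, which encodes the lipopolysaccharide-binding protein, at 14.5 TPM with shETV4 and 5.44 TPM with shRFP (2.66-fold). The metallothioneins Mt1 and Mt2, which bind zinc and copper, were the most abundant, Mt1 at 646 TPM with shETV4 and 479 TPM with shRFP and Mt2 at 283 and 155 TPM.

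Of 8 listed genes for proteins that fall in plasma during the acute phase, 4 were measured. All 4 lay above 0, and 2 were called higher. Over all measured genes 41.6% lay above 0 and 3.39% were called higher. Alb was listed at 0 in both libraries and Ttr did not exceed 0.06 TPM, so these 2 could not be read. Trf, the transferrin gene, was at 127 TPM with shETV4 and 27.5 TPM with shRFP (4.62-fold), with 63.5% of its exonic bases in exons of another gene. Ahsg, which encodes fetuin-A, was at 1.74 TPM with shETV4 and 0.34 TPM with shRFP, a call that ends with the GC adjustment (0.99). Rbp4, the plasma retinol carrier, was at 25.02 and 16.79 TPM, and Apoa2 was at 2.93 and 2.61 TPM, both within 2-fold.

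The other 53 complement genes, in 5 lists, held 11 measured genes, of which 1 was called higher and none lower, with a median difference of 0.09. Shares over all measured genes were 3.39% higher and 7.06% lower. The call was C2, which rests on 0.07 TPM with shRFP and came to 0.93 after the GC adjustment. Of the classical and lectin pathway list, 5 of 18 were measured, and the most abundant were Masp1, a lectin route protease, at 46.7 TPM with shETV4 and 70.5 TPM with shRFP, and Colec12, a collectin scavenger receptor, at 19.3 and 30.9 TPM. Of the alternative and terminal list, 2 of 9 were measured: Cfp, which encodes the convertase stabiliser properdin, at 6.27 TPM with shETV4 and 5.39 TPM with shRFP, and C8g at 1.95 and 1.35 TPM. Both lay within 2-fold.

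Among soluble regulators, Clu, which encodes clusterin, was the 1 of 9 measured, at 537 TPM with shETV4 and 300.2 TPM with shRFP, a difference of 0.84. Of 7 membrane regulators 2 were measured, Cr1l, the rodent inhibitor of C3 convertases on the cell surface, at 19.6 TPM with shETV4 and 22.6 TPM with shRFP, and Thbd, the thrombomodulin gene, at 12.6 and 15.0 TPM. Of 10 complement receptors only C1qbp, a mitochondrial protein that also binds C1q, was measured, at 403 TPM with shETV4 and 392.2 TPM with shRFP. C3ar1, the receptor of the C3 fragment C3a, was at 0.21 and 0.31 TPM, and the C5a receptor gene C5ar1 was listed at 0 in both. C3 was thus the 1 complement gene among those described that was at 5 TPM or more and past 2-fold.

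Of 33 inducing cytokines, receptors and transcription factors, 26 were measured, 2 were called higher and none lower, with a median difference of 0.06. Shares over all measured genes were 3.39% higher and 7.06% lower. Among those called, Cebpb, the C/EBP factor that carries interleukin-6 and interleukin-1 signals to acute phase genes, was at 37.1 TPM with shETV4 and 14.4 TPM with shRFP (2.58-fold). The most abundant genes of the list lay within 2-fold, Tnfrsf1a, a tumour necrosis factor receptor, at 102 TPM with shETV4 and 76.2 TPM with shRFP, and Nfkbia, the NF-kB inhibitor gene, at 78.2 and 93.6 TPM. Il1a, Il1b, Tnf and Osm were listed at 0 in both libraries, and Hnf4a, a factor that holds the hepatocyte programme, did not exceed 0.03 TPM.

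**Figure D5:**
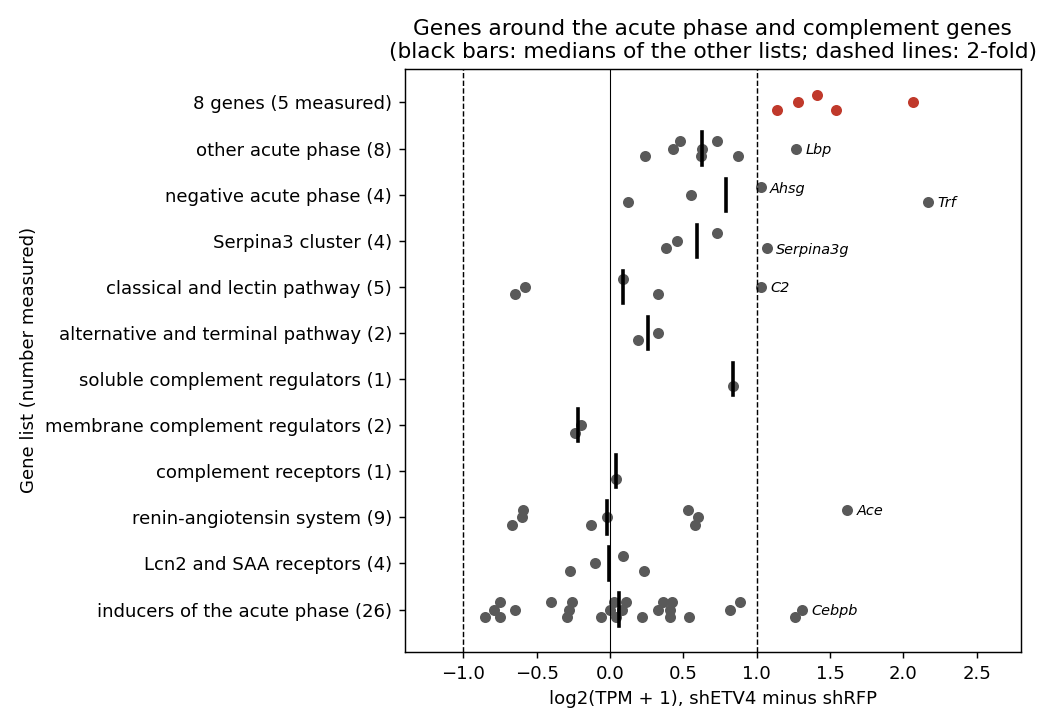
Difference in log2(TPM + 1), shETV4 minus shRFP, of each measured gene in the acute phase and complement set (red) and in 11 lists around it (grey), with the number measured in parentheses; black bars are the medians of the lists and dashed lines mark 2-fold. Of the lists, 8 genes lie past 2-fold upward, 7 of them named in the plot, and none lies below the lower dashed line.

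The genes next to the 8 on the chromosome went several ways. Of the 32 nearest measured protein-coding genes, 2 on each side of each gene, 4 were called higher, 2 lower and 26 lay within 2-fold. Of all measured protein-coding genes, 2.16% were called higher and 6.37% lower. Not all neighbours are separate from the 8: Gm20547 overlaps Cfb, C2 shares 46.9% of its exonic bases, and Serpina3g is a relative of Serpina3n. Nothing is read from these counts. Serping1, itself below 1 TPM, lies 23384 bases from Ube2l6, a conjugating enzyme for ISG15, at 160 TPM with shETV4 and 74.2 TPM with shRFP, and 26732 bases from Ypel4 at 3.86 and 1.07 TPM. Serpina3g and C2 were the other genes called higher. Gtf2h1, a subunit of the transcription factor TFIIH near Saa3, was lower at 17.9 TPM with shETV4 and 38.3 TPM with shRFP (-0.47 after the GC adjustment), and 1110008P14Rik, 2695 bases from Lcn2, was lower at 20.6 and 51.8 TPM. Agt, C3 and C4b had no called gene among their 4 neighbours each.

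For each measured gene, the protein-coding gene with the most similar levels was found by Euclidean distance in log2(TPM + 1) over the 2 libraries, which is a likeness of levels in 2 samples only. It was Camk1d for Saa3 (distance 0.078; 319 TPM with shETV4 and 117 TPM with shRFP), Gbp6 for Lcn2 (0.086; 25.99 and 11.15 TPM) and Irgm2 for Agt (0.15; 52.3 and 10.1 TPM). For Serpina3n it was Asic1 (0.077; 4.76 and 1.34 TPM) and for C3 it was Sp100 (0.099; 14.4 and 5.93 TPM).

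Etv4 was at 16.2 TPM with shETV4 and 73.2 TPM with shRFP, a difference of -2.11, as the labels of the libraries have it. In these cells, labelled as hepatocellular carcinoma, all 10 hepatocyte markers were below 1 TPM in both libraries. Their summed level was 0.4 TPM with shETV4 and 0.24 TPM with shRFP, and Alb, Cyp2e1, Tat and F2 were listed at 0. Marker levels alone do not settle the origin of the line. Neutrophils and macrophages also make several of the 8 proteins. None of 8 neutrophil markers was measured (sum 0.17 TPM with shETV4 and 0.06 TPM with shRFP; S100a8, S100a9, Mpo, Camp and Ltf at 0), and 1 of 9 macrophage markers was, Cd68 at 1.98 and 1.01 TPM, with Adgre1 and C1qa at 0. Of 6 endothelial markers none was measured. Of 8 stellate cell and fibroblast markers, 4 were measured, all within 2-fold, with a sum of 856 TPM with shETV4 and 635 TPM with shRFP. The sum was led by Col3a1 at 538 and 367.5 TPM and Col1a1 at 229 and 200.4 TPM, followed by Pdgfrb and Dcn. Lrat was listed at 0 in both, and Lum, Rgs5 and Des did not exceed 0.64 TPM. Of 7 progenitor and biliary markers, 4 were measured, and the list summed to 613 TPM with shETV4 and 611 TPM with shRFP. Cd24a was called lower at 55.5 TPM with shETV4 and 132 TPM with shRFP. The other 3 measured markers were higher with shETV4 but within 2-fold, their differences being 0.68 (Sox9), 0.39 (Krt19) and 0.17 (Spp1). Spp1 gave most of both sums, with 476 TPM under shETV4 against 423 TPM under shRFP. Epcam, Krt7 and Prom1 did not exceed 0.23 TPM. The part of the fibroblast and progenitor genes in the differences above was not tested, and in bulk RNA a change in the share of cells that express a gene and a change in RNA per cell cannot be told apart.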

How the data were processed

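Total RNA of 2 libraries of LPC-HRas cells, 1 per hairpin, was made into Illumina TruSeq libraries, per the labels' protocols, and grouped by the treatment label. The authors deposited TPM with 2 decimals; the headers name no unit, and it was inferred from column totals of 999870.30 (shETV4) and 999999.77 (shRFP). HISAT2, RSEM and GRCm38.p4 are named, without roles, in the submitters' processing notes; no source used here gives the annotation, strand setting or filters. TPM keeps no depth, so no counting interval could be given.

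The 153 unnamed loci of 55640 records were left out. GENCODE M21 (GRCm38; 99.5% of named records matched) gave biotype, position, GC content (median over a gene's transcripts) and shared exonic bases; shared 31-base words were counted in its transcripts. Differences used a pseudocount of 1. With 1 library per group no test, p-value or SD exists, across all genes or for one. The genes, lists and naming rule were chosen with earlier results of these data known. The rule names the 8 genes and Etv4, up to 4 called genes per direction and the 2 most abundant of each list, called neighbours and the gene of most similar levels. Genes named at or near 0, such as Saa1, Ren1 and Hc, were chosen after their values were seen. Some listed genes are counted in their list but not reported here by name. The GC adjustment subtracted the median over 50 bins. The procedure was tested on simulated data. Python 3.11.15, numpy 2.4.6, pandas 2.3.3 and matplotlib 3.10.9 were used.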

Additional observations from a re-analysis of the deposited data

How the results depend on the processing

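No paired analysis was possible because each group has 1 library. The alternatives were pseudocounts of 0.1 and 5, no filter or one at 5 TPM, 2 other scales (median ratio or trimmed mean of log ratios set to equality, shifts of -0.07 and -0.08), thresholds of 1.5-fold and 3-fold, protein-coding genes only, the GC adjustment and sums over relatives. For the 8 genes, 85 of 92 recomputed differences kept their direction and their status as called or not called, and none reversed. Many of these outcomes were fixed in advance, so the count is no measure of robustness. Under nearly all settings C4b, Cfb and Serping1, below 1 TPM, could not be called. Dropping the filter, the 1.5-fold threshold and the limit to protein-coding genes could not undo a call. No pseudocount or threshold could reverse a direction. Among the 85, C4b (1.58) and Serping1 (1.31) passed 2-fold with pseudocount 0.1 but, below 1 TPM in both libraries, were not called. With pseudocount 5, Lcn2 (0.94), C3 (0.92) and Serpina3n (0.68) came inside 2-fold, leaving 2 of the 8 called higher. At 3-fold Saa3 (1.54), Serpina3n (1.41), C3 (1.28) and Lcn2 (1.14) were not called, leaving 1. Both follow from the alternatives' construction. In the 12 lists together, 8 of 66 measured genes were called higher and none lower, beside 3.39% and 7.06% over all measured genes. The counts of higher genes in the lists were 3 with pseudocount 5, 17 at 1.5-fold and 2 at 3-fold. Those of lower genes were 1 with pseudocount 0.1 and 9 at 1.5-fold. Over all genes, higher calls numbered 674 and 167 with pseudocounts 0.1 and 5, 252 at 5 TPM, 1117 at 1.5-fold, 162 at 3-fold and 250 among protein-coding genes. Lower calls numbered 1459 and 267 with those pseudocounts, 2591 at 1.5-fold, 162 at 3-fold and 298 after the GC adjustment. The depth behind each value is unknown, so no counting error could be set beside the values under 1 TPM of C4b, Cfb and Serping1.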

Other observations

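Among the 12 lists, the GC adjustment changed which genes were past 2-fold: 6 genes were called higher both with and without it, among them Lbp, Trf, Serpina3g, Ace and Cebpb, 2 were called without it alone (Ahsg and C2) and 3 with it alone. Those 3 were Cp, which encodes the copper-carrying ferroxidase ceruloplasmin, at 10.6 TPM with shETV4 and 6.50 TPM with shRFP (0.63 before and 1.36 after adjustment), Vnn1, a pantetheinase gene, at 6.93 and 3.77 TPM (0.73 and 1.02), and Cebpd, a C/EBP factor of the acute phase, at 52.0 and 27.6 TPM (0.89 and 1.05). They were named after their values were seen, and the cause was not tested.

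Il6, the main cytokine inducer of acute phase genes, was at 2.46 TPM with shETV4 and 5.24 TPM with shRFP. Its difference of -0.85, short of a call, came to -0.04 after the GC adjustment. The genes of its receptor chains lay close between the libraries, Il6st at 35.04 TPM with shETV4 and 36.7 TPM with shRFP and Il6ra at 2.7 and 2.49 TPM. Stat3 was at 75.3 TPM with shETV4 and 55.9 TPM with shRFP, and Socs3 at 36.4 and 24.7 TPM, both within 2-fold. These genes, too, were named after their values were seen. Whether interleukin-6 had a part in the higher levels of acute phase genes was not tested.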
